A study of Mus musculus with 26 samples.

Results

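The genes described here encode 10 Polycomb subunits: Ezh1, Ezh2, Eed and Suz12, the core of Polycomb repressive complex 2; Jarid2, Mtf2, Phf1 and Phf19, its accessory subunits; and Ring1 and Rnf2, the E3 ligases of Polycomb repressive complex 1. They were found by symbol among 52535 gene rows of the count data, where all 10 were present, and by position among chromatin loops with an anchor within 2500 bases of the gene in mm10. The loops at these genes were 274 of 143451 in the list of the WT-labelled cells and 453 of 489409 in the list of the KO-labelled cells. The study compared wild-type and Klf4-knockout mouse E14 embryonic stem cells and the cells derived from them by neural differentiation; Klf4 encodes a zinc finger transcription factor of the pluripotency network. RNA-seq and RNA polymerase II HiChIP, which joins chromatin contacts with immunoprecipitation of the polymerase, were made from cells labelled as neural progenitor cells at day 12. Each assay had 2 samples labelled WT and 2 labelled Klf4 KO; RNA was counted per library, whereas the loops came as 1 list per genotype. For both genotypes, the stem cell medium held serum and LIF with PD0325901, an inhibitor of MEK, and CHIR99021, an inhibitor of GSK3, on gelatin-coated plates. Nothing in the labels used here says how many knockout clones were made. ChIP-seq samples of the stem cells were not analysed here.

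Polycomb repressive complex 2 places methyl groups on lysine 27 of histone H3, and the trimethyl form of this mark accompanies silenced developmental genes. Its catalytic subunit is either Ezh2 or its paralogue Ezh1, which is the weaker methyltransferase and is common in non-dividing cells; Eed reads the mark and stimulates the enzyme, and Suz12 holds the complex together. Accessory subunits steer the complex to chromatin: Mtf2, Phf1 and Phf19 are the Polycomb-like proteins of one form of the complex, and Jarid2 belongs to another. Polycomb repressive complex 1 ubiquitinates histone H2A through Ring1 or Rnf2, and both complexes are known in embryonic stem cells for holding differentiation genes silent until lineage commitment.

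The targeted gene went against the labels in the RNA. Klf4 had 0 and 0 reads in the 2 WT-labelled libraries and 2571 and 2538 reads in the 2 KO-labelled libraries, which is at least 752-fold higher in the latter when a floor of 3 reads per library is set for a count of 0. The libraries are therefore called WT-labelled and KO-labelled throughout, and each direction below is KO-labelled relative to WT-labelled, as labelled. In the loop lists, the loops kept at Klf4 carried 32 paired tags in the WT-labelled list and 4 in the KO-labelled list, so the 2 assays did not show the same order at this gene. Reads counted in genes ranged from 29835774 to 37703866 per library, and replicates within a genotype differed by more than counting noise. The design text calls the 2 samples biological replicates.

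The promoters of these genes are CpG-rich as a group. Windows of 250 bases upstream of each annotated start, from RefSeq on GRCm38.p6, gave 12 windows for the 10 genes, with a median of 23 CpG dinucleotides against 6 over all 32841 promoter windows. The 5 windows printed here belong to the genes whose RNA and loops moved down together (Eed, Suz12 and Mtf2), to Jarid2, whose loops moved without its RNA, and to Ezh1, whose RNA moved up; they are written 5′ to 3′ on the strand of the gene, and capitals mark motif matches. The windows lie at chr7:89980977-89981226 (minus strand) for Eed, chr11:79992856-79993105 (plus strand) for Suz12, chr5:108065424-108065673 (plus strand) for Mtf2, chr13:44730524-44730773 (plus strand) for Jarid2 and chr11:101226464-101226713 (minus strand) for Ezh1.
Eed: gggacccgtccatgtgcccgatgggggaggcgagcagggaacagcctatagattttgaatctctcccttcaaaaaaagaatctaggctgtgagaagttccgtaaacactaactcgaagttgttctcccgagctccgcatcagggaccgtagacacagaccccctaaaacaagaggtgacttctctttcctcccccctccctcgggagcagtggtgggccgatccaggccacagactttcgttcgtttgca
Suz12: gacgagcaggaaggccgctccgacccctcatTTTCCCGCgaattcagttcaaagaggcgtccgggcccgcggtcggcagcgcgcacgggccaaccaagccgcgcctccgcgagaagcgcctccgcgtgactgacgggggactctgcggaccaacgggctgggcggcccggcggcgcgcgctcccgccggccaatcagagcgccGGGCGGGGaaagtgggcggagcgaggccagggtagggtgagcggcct
Mtf2: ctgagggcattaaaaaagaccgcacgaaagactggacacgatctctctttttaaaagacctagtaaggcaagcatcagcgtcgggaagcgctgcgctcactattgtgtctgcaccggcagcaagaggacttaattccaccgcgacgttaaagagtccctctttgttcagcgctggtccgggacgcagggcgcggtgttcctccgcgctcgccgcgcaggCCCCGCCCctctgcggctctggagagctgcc
Jarid2: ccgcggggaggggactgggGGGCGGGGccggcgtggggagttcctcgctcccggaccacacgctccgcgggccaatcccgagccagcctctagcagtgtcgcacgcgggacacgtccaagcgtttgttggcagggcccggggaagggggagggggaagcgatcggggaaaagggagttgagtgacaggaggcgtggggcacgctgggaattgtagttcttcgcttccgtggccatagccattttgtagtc
Ezh1: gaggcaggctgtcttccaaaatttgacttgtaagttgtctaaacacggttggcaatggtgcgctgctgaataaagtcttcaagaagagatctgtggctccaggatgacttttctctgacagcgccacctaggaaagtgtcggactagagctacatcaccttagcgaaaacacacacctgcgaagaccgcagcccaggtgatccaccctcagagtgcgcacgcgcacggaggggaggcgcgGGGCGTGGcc
Motifs were searched on both strands: the E2F site as TTTGGCGC, TTTCCCGC, TTTGCCGC or TTTCGCGC, the GC box GGGCGGGG, the KLF site GGGNGTGG, the ETS site CCGGAAG and the E-box CACGTG. An E2F word stood in the windows of Suz12 and Phf19, and 1.86% of all promoters hold one. The GC box stood in the windows of Suz12, Jarid2, Mtf2, Phf1, Phf19 and Rnf2, against 16.1% of all promoters. The KLF word stood in those of Ezh1 and Rnf2, against 15.9% of all promoters, and the capitals in the Ezh1 window above are this match. The promoters behind these shares were not matched for the higher CpG content of the 10 genes, so no enrichment is read from them. No window held the ETS word, present in 6.91% of promoters, or the E-box, present in 6.02%; a match or its absence describes letters only. In the windows above, Suz12 held 37 CpG, Mtf2 and Jarid2 23 each, Ezh1 14 and Eed 12, so the genes with lower RNA in KO-labelled libraries span the range of CpG content.

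The RNA of the 10 genes did not move as a block: 4 rose (Ezh1, Phf1, Phf19 and Ring1), 4 fell (Ezh2, Eed, Suz12 and Mtf2), and Jarid2 and Rnf2 did not pass the test. The largest differences were in Phf19, 13.8-fold higher, and Eed, 2.88-fold lower. All 10 genes passed the filter on low counts. A call is an adjusted p at or under 0.05 by edgeR's quasi-likelihood test with Benjamini-Hochberg adjustment over 17273 genes. The background was broad, since 73.1% of all genes tested passed, 37.2% higher and 35.8% lower, so the share of the Polycomb genes called is close to the background. Of the calls over all genes, 50.9% were higher, or 62.0% with library size alone. The 2 WT-labelled and 2 KO-labelled libraries did not overlap for 9 of the 10 genes, against 86.3% of all genes, and 3 of the 10 (Eed, Phf19 and Ring1) were called with a difference of at least 2-fold, against 33.7%. The median log2 fold change was -0.046 over the 10 genes and 0.026 over all genes tested. Values per library are CPM, that is read counts per fixed library size, scaled by trimmed mean of M-values (TMM) factors, a scale on which a gene is compared between libraries but not with another gene, since gene lengths were not available for it.

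**Figure D1:**
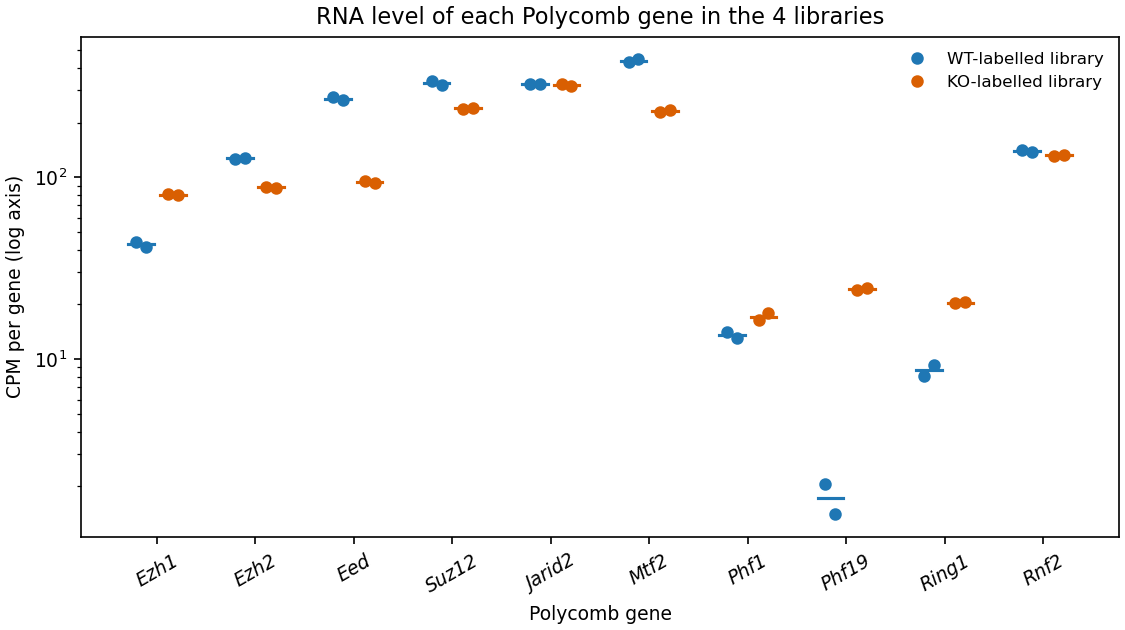
CPM (log axis, TMM-scaled) of the 10 Polycomb genes in each of the 4 libraries; points are libraries, coloured by labelled genotype, and bars are the mean of 2. The points of Phf19 lie at 1.41 and 2.05 for the WT-labelled pair and 24.1 and 24.5 for the KO-labelled pair, and those of Jarid2 overlap between genotypes.

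Among the core subunits of complex 2, the 3 genes other than Ezh1 were lower in KO-labelled libraries. Ezh2 (chromosome 6, 47530274 to 47595270, minus strand), the main catalytic subunit of dividing cells, measured 126.7 and 127.5 CPM in WT-labelled and 88.3 and 87.7 CPM in KO-labelled libraries. Both KO-labelled libraries were below both WT-labelled ones, and the gene fell by 0.53 ± 0.042 (SE) on the log2 scale (edgeR adjusted p = 3.55e-11). Eed (chromosome 7, 89954654 to 89980976, minus strand), which reads trimethylated lysine 27, measured 275 and 266 CPM against 95.2 and 92.8 CPM. Its groups lay far apart, with means of 270.4 ± 6.27 and 94.0 ± 1.69 CPM (SD, n = 2), and it fell by 1.53 ± 0.036 on the log2 scale (edgeR adjusted p = 9.79e-22). Of all genes tested, 76.5% had a smaller absolute log2 fold change than Eed. Suz12 (chromosome 11, 79993106 to 80034123, plus strand), the scaffold of the complex, measured 337 and 323 CPM against 237 and 242 CPM. These groups did not overlap either, and Suz12 fell by 0.46 ± 0.031 on the log2 scale, or 1.38-fold (edgeR adjusted p = 1.33e-12).

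Ezh1 (chromosome 11, 101191115 to 101226463, minus strand), the alternative catalytic subunit, moved the other way from Ezh2. It measured 44.3 and 41.4 CPM in WT-labelled and 81.3 and 79.4 CPM in KO-labelled libraries. Both KO-labelled values were above both WT-labelled values, and the log2 fold change was 0.91 ± 0.058 (edgeR adjusted p = 4.26e-13), a 1.87-fold rise. The Ezh1 to Ezh2 read ratio, in which the lengths of the 2 genes cancel when genotypes are compared, was 0.349 and 0.325 for the WT-labelled pair and 0.921 and 0.906 for the KO-labelled pair. The ratio was thus 2.71-fold higher in the KO-labelled libraries; an exact permutation test over the 4 libraries cannot go below p = 0.333, two-sided, and it gave that value.

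Of the accessory subunits, Mtf2 fell, Phf19 and Phf1 rose, and Jarid2 stayed within the spread of the libraries. Mtf2 (chromosome 5, 108065660 to 108109219, plus strand), a Polycomb-like protein that links the complex to CpG islands in embryonic stem cells, measured 430 and 444 CPM against 229 and 233 CPM. Its groups did not overlap, and it fell by 0.92 ± 0.030 on the log2 scale, or 1.89-fold (edgeR adjusted p = 4.74e-19). Phf19 (chromosome 2, 34893752 to 34914353, minus strand), another Polycomb-like protein, had 72 and 39 reads in WT-labelled and 825 and 879 reads in KO-labelled libraries. These are 2.05 and 1.41 CPM against 24.1 and 24.5 CPM, and the log2 fold change was 3.78 ± 0.16 (edgeR adjusted p = 8.52e-17). A smaller absolute log2 fold change was found in 93.7% of the genes tested. Phf1 (chromosome 17, 26933127 to 26937908, plus strand), the remaining Polycomb-like gene, measured 14.1 and 13.1 CPM against 16.4 and 17.9 CPM. Its groups were close but did not overlap, and the log2 fold change was 0.33 ± 0.11 (edgeR adjusted p = 0.0116). The call at Phf1 was lost without WT-labelled replicate 2 (edgeR adjusted p = 0.0627) and without KO-labelled replicate 2 (edgeR adjusted p = 0.132).

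Jarid2 (chromosome 13, 44730774 to 44921643, plus strand), which belongs to the form of complex 2 without Polycomb-like proteins, measured 324.5 and 327 CPM in WT-labelled and 326 and 318 CPM in KO-labelled libraries. The 2 groups overlapped, and the log2 fold change was -0.017 ± 0.029 (edgeR adjusted p = 0.612); this difference changes sign under other scalings, to 0.069 with upper-quartile factors and 0.19 with library size alone, which moves the median of all genes to 0.24. The read ratios among the Polycomb-like genes shifted away from Mtf2. The Phf19 to Mtf2 ratio was 0.00477 and 0.00317 for the WT-labelled pair and 0.105 and 0.105 for the KO-labelled pair, a 27.1-fold rise in the ratio. The Phf1 to Mtf2 ratio rose 2.38-fold, from 0.0329 and 0.0295 to 0.0718 and 0.0767. Between the 2 genes that rose, the Phf19 to Phf1 ratio went from 0.145 and 0.107 to 1.47 and 1.37. The exact permutation p of each ratio was 0.333, the smallest that 4 libraries allow.

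The E3 ligase genes of complex 1 differed from each other. Ring1 (chromosome 17, 34020792 to 34024680, minus strand), also called RING1A, had 285 and 258 reads in WT-labelled and 699 and 736 reads in KO-labelled libraries. In CPM these were 8.12 and 9.32 against 20.4 and 20.5, with no overlap, and the log2 fold change was 1.23 ± 0.12 (edgeR adjusted p = 1.24e-09). Rnf2 (chromosome 1, 151469398 to 151500991, minus strand), also called RING1B and the main ligase of embryonic stem cells, measured 140.5 and 137.5 CPM against 131 and 133 CPM. Both KO-labelled values were slightly lower, but the log2 fold change of -0.074 ± 0.039 did not pass the test (edgeR adjusted p = 0.0876), and it was 0.011 with upper-quartile factors and 0.14 with library size alone. The Ring1 to Rnf2 read ratio was 0.0578 and 0.0678 for the WT-labelled pair and 0.155 and 0.155 for the KO-labelled pair, 2.48-fold higher in the latter, with the same exact permutation p of 0.333. In the annotation, overlaps with another gene concern Ezh2, which shares 62 bases with the long noncoding RNA F830010H11Rik, and Phf1, which shares 68 bases with Mir6968. The sources used here do not say whether reads were assigned by strand, so reads in those overlaps cannot be assigned.

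**Figure D2:**
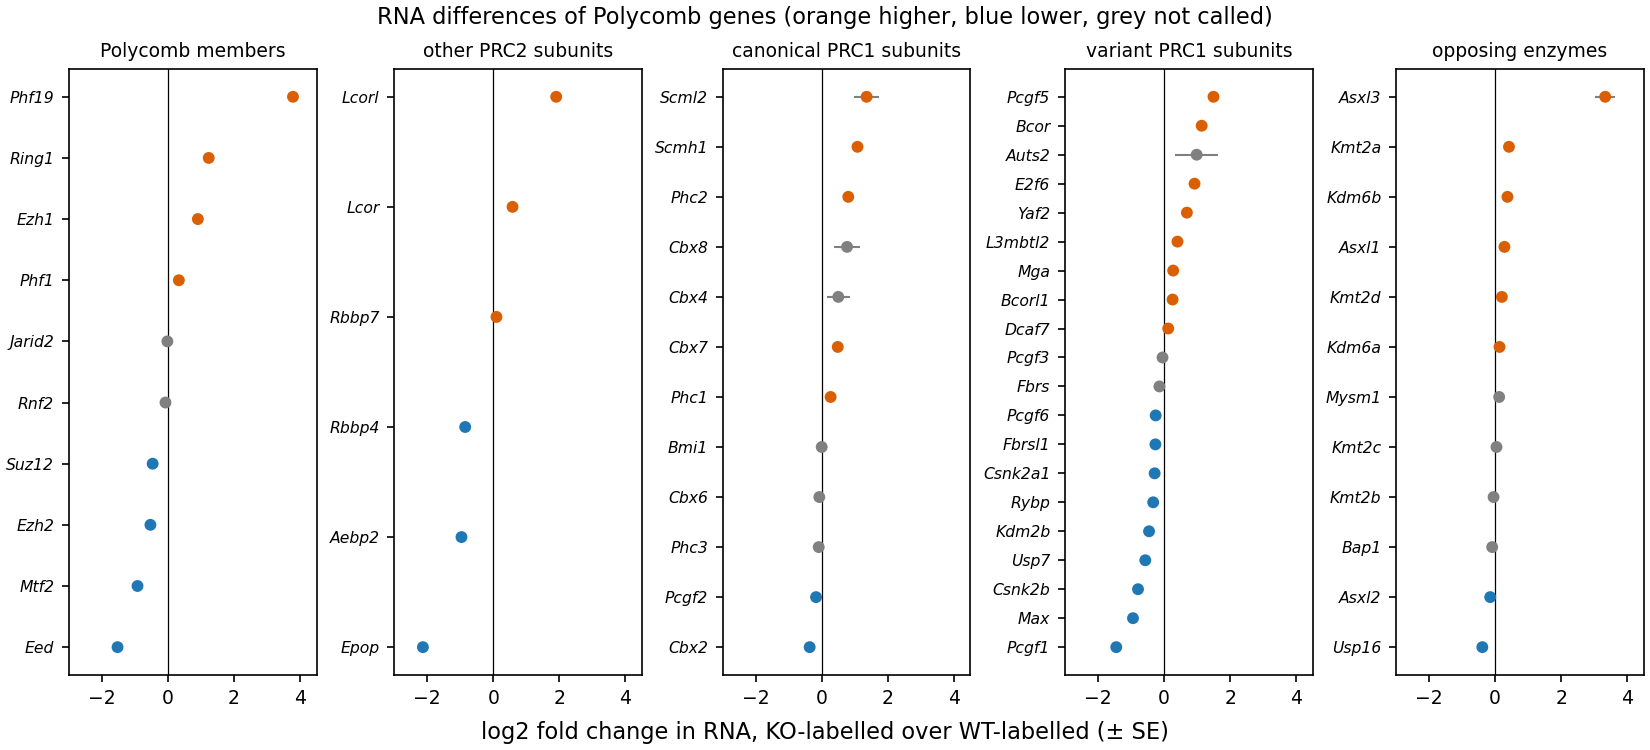
Log2 fold change (horizontal axis, with SE bars), KO-labelled over WT-labelled, of the 10 Polycomb genes and of the other subunit and opposing enzyme lists; points are genes, orange where higher, blue where lower and grey where not called by edgeR. The 10 genes run from -1.53 (Eed) to 3.78 (Phf19), on both sides of 0.

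The other subunits of the complexes moved in both directions too, beside 37.2% higher and 35.8% lower over all genes tested. Of 7 further genes of complex 2, 6 were tested, 3 rose and 3 fell, and the median log2 fold change was -0.38. Epop, which joins the Polycomb-like form of the complex, measured 308 and 322 CPM in WT-labelled and 70.1 and 73.5 CPM in KO-labelled libraries and fell by 2.13 ± 0.038 on the log2 scale. Aebp2, the partner of Jarid2 in the alternative form, fell by 0.96 ± 0.041, from 168 ± 4.48 to 86.3 ± 0.924 CPM (SD, n = 2). The PALI-type subunit genes Lcorl and Lcor rose by 1.90 ± 0.084 and 0.58 ± 0.13 in log2 fold change. Of 12 genes of canonical complex 1, 5 rose, 2 fell and 5 were not called, with a median of 0.38. Scml2 and Scmh1, which encode Sex comb on midleg homologues, had log2 fold changes of 1.36 ± 0.38 and 1.08 ± 0.13, and Cbx2, a chromobox reader of methylated lysine 27, fell by 0.37 ± 0.071. Pcgf2, a partner of the ligases, fell by 0.17 ± 0.054, but this difference was 0.037 with library size alone.

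The variant forms of complex 1, which lack chromobox readers, were as mixed. Of their 20 genes, 8 rose, 9 fell and 3 were not called, with a median log2 fold change of -0.095. Pcgf5, a partner of the ligases, had a log2 fold change of 1.49 ± 0.12, and the corepressor Bcor one of 1.14 ± 0.060. In the same form as Bcor, Pcgf1 fell by 1.45 ± 0.14 on the log2 scale, and Max, the E-box-binding partner of the Pcgf6 form, fell by 0.94 ± 0.048. Together, 38 of the 39 further subunits of both complexes were tested. Of these, 16 rose, 14 fell and 8 were not called, with a median of 0.047. The background over all genes was 37.2% higher and 35.8% lower, so these shares are close to it. The enzymes and cofactors that oppose the complexes, such as demethylases of lysine 27, deubiquitinases of H2A and Trithorax methyltransferases, gave 6 higher, 2 lower and 4 not called of 12. The largest rise there was in Asxl3, a cofactor of the H2A deubiquitinase, from 0.603 ± 0.035 to 6.13 ± 0.658 CPM, with a log2 fold change of 3.33 ± 0.30. Kmt2a, a Trithorax methyltransferase, had a log2 fold change of 0.42 ± 0.039, and Usp16, an H2A deubiquitinase, fell by 0.39 ± 0.075. Asxl2 fell by 0.15 ± 0.042, a difference that was 0.062 with library size alone.

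Genes often silenced by Polycomb in embryonic stem cells were mostly higher where they could be tested. Of 35 such genes, 24 passed the filter, 18 rose, 4 fell and 2 were not called; genes that pass only through the group where they are high had to differ, so this count is a description. Of the 35, 27 were under 1 CPM in the WT-labelled libraries and 18 in the KO-labelled ones, and 5 are also in a marker list used here. Lhx1, a homeobox gene of mesoderm and nervous system, had 0 and 0 reads against 609 and 649 reads, at least 185-fold higher in KO-labelled libraries with 3 reads per library as the floor. Wnt1, a signalling ligand of the midbrain, had 0 and 0 reads against 101 and 89, at least 28.0-fold higher. Against this direction, Hoxb13 had 61 and 76 reads against 0 and 1, a ratio of 153 with a 95% counting interval from 27.02 to 6089. Hoxc12 had 95 and 45 reads against 1 and 1, a ratio of 78.2 with an interval from 21.2 to 652. Of 12 genes of the E2F and pocket protein families, whose products regulate Ezh2 and Eed in cycling cells, 7 rose and 5 fell. The shares over all genes tested were 37.2% higher and 35.8% lower. Rb1 and Rbl2 had log2 fold changes of 0.95 ± 0.11 and 0.94 ± 0.12, E2f2 fell by 0.90 ± 0.11 and Tfdp1, the dimer partner of E2F proteins, by 0.72 ± 0.036.

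Markers of cell state and of other cell types differed between the same libraries, and their part in the Polycomb differences was not tested. Of 12 proliferation genes, 11 were lower and 1 (Mki67, log2 fold change 0.32) higher, and their summed level ranged from 6614 to 6664 CPM in WT-labelled and from 4401 to 4516 CPM in KO-labelled libraries. Of 10 pluripotency genes, 9 were lower and 1 (Klf2) higher, with sums of 8507 to 8539 and 4359 to 4423 CPM. All 10 passed the filter in cells labelled as neural progenitors. Of 10 neural progenitor genes, 9 were tested and all 9 were higher, with sums of 102.5 to 103.4 and 341 to 349 CPM; Fabp7 and Hes5 were at 0 in WT-labelled libraries. Of 10 mesoderm and muscle genes 8 were higher and 1 lower, with sums of 14.1 to 14.8 and 180 to 185 CPM, and Mesp1 and Actc1 were at 0 in WT-labelled libraries. Endoderm genes gave 7 higher and 1 lower of 8 tested of 10, with sums of 3.40 to 4.22 and 49.3 to 52.3 CPM; Afp was at 0 in WT-labelled and Ttr at 0 in KO-labelled libraries. Fibroblast genes gave 6 higher and 0 lower of 7 tested of 10, with sums of 1327 to 1329 and 1617 to 1662 CPM, most of it Fn1; Dcn, Lum and Postn were at 0 in WT-labelled libraries and S100a4 in both. Under 1 CPM in WT-labelled libraries were 5 of 10 neural progenitor and 7 of 10 mesoderm and muscle genes. The same held for 9 of 10 endoderm and 7 of 10 fibroblast genes. Those that pass the filter only through the group where they are high had to differ, so these counts are a description. Among all genes tested, 37.2% were higher and 35.8% lower. In bulk RNA, fewer cells of a type and less RNA per cell cannot be told apart.

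Phf19 was the Polycomb gene with the largest difference, and a search over all tested genes found those with the most similar levels in the 4 libraries. By Euclidean distance of log2(CPM + 0.5) over the 4 libraries, these were Mvb12b (distance 0.258), a subunit of the ESCRT-I sorting complex, Axl (0.287), a receptor tyrosine kinase, and Sorbs3 (0.402), the adhesion adaptor vinexin. Their log2 fold changes were 4.07, 3.74 and 3.51, beside 3.78 for Phf19. Likeness over 2 groups of 2 libraries mainly reflects a like level in each group.

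Summed over the 10 Polycomb genes, RNA polymerase II loops carried a smaller share of the tags in the KO-labelled list. A loop is a pair of anchors joined by paired-end tags; kept loops are those with the authors' false discovery rate at or under 0.01 and at least 2 tags. Of 22148 kept loops with 175142 tags in the WT-labelled list, 55 loops with 917 tags touched the 10 genes, which is 52.4 per 10000 tags (95% Poisson interval 49.0 to 55.9). Of 57463 kept loops with 285890 tags in the KO-labelled list, 67 loops with 321 tags did, or 11.2 per 10000 (10.0 to 12.5). The share was 4.66-fold lower in the KO-labelled list (interval 4.10 to 5.31). Jarid2 with 414 and Mtf2 with 230 held most of the 917 WT-labelled tags, so the sum mainly describes these 2 genes. Each list has no replicates, so no test was made, and the intervals cover counting error only. Differences of this kind were common: of 7528 genes with at least 20 kept tags over both lists, 80.2% had tag shares at least 2-fold apart, 50.3% higher and 29.8% lower in the KO-labelled list. Of the 10 Polycomb genes, 7 reached 20 tags, and all 7 were at least 2-fold apart, 4 lower (Eed, Suz12, Jarid2 and Mtf2) and 3 higher (Ezh1, Phf1 and Ring1).

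The lists differ in structure, which bears on every value drawn from them. The anchors of all loops covered 92.5 Mb in 24123 pieces in the WT-labelled list and 172.8 Mb in 51088 pieces in the KO-labelled list. A kept loop held 7.91 tags on average in the WT-labelled and 4.98 in the KO-labelled list, and 60.2% and 50.1% of kept tags were in loops of at most 100 kb. At the Polycomb genes the same shares were 74.7% (685 tags) and 45.8% (147 tags). Loops with both anchors overlapping a loop of the other list were 10 of the 55 in the WT-labelled list, 18.2% (exact 95% interval 9.08 to 30.9), and 12 of the 67 in the KO-labelled list, 17.9% (9.61 to 29.2). Over all kept loops these shares were 11.8% and 4.83%.

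**Figure D3:**
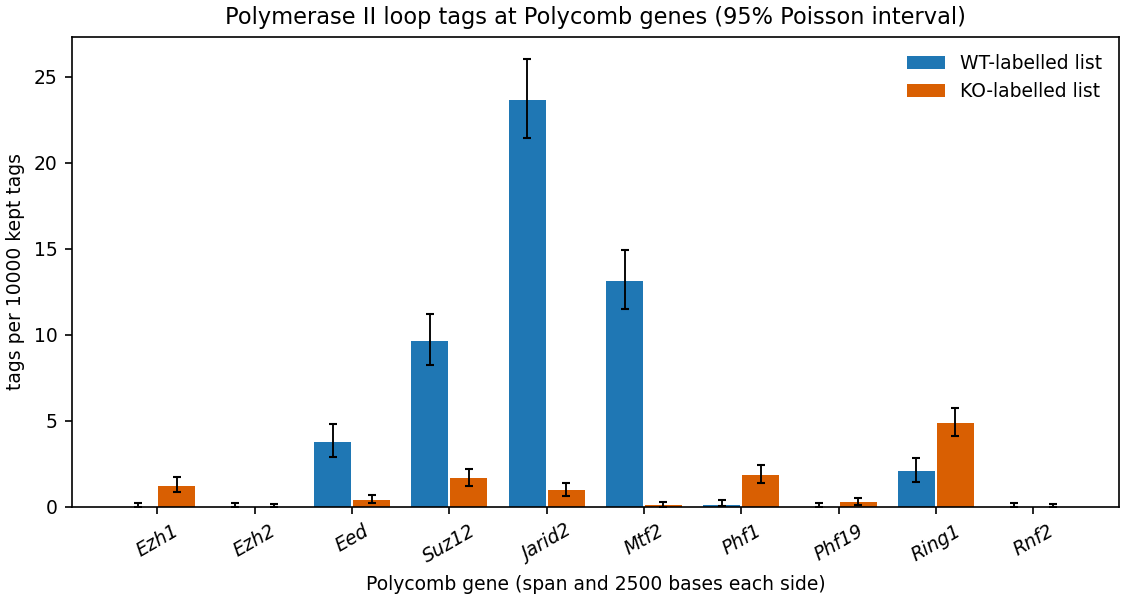
Kept HiChIP tags per 10000 kept tags (bars from 0, linear axis) at each Polycomb gene in the WT-labelled (blue) and KO-labelled (orange) lists, with 95% Poisson intervals. Mtf2 went from 13.1 to 0.0700 and Jarid2 from 23.6 to 0.944, while Phf1 went from 0.114 to 1.85.

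Jarid2 held more loop tags than any other of the 10 genes in the WT-labelled list. Its 12 kept loops there carried 414 tags, or 23.6 per 10000, against 7 loops with 27 tags, or 0.944 per 10000, in the KO-labelled list. The share was 25.03-fold lower in the latter (interval 17.0 to 38.4), or 16.4-fold lower over all loops (12.8 to 21.3), while the RNA of Jarid2 differed by less than the spread between libraries. The strongest WT-labelled loop held 205 tags over 18.8 kb, to an anchor 24.0 kb upstream of the start; others held 98 tags over 49.0 kb and 38 tags over 165 kb. The strongest KO-labelled loop, of 14 tags over 24.7 kb, overlapped one of the WT-labelled list at both anchors. Tags in loops of at most 100 kb numbered 324 against 14, and the widest anchor at the gene was 23060 bases against 6068 bases. The part of anchor width in the difference was not tested.

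Mtf2 had the largest ratio among the genes with kept tags in both lists. It had 17 loops with 230 tags in the WT-labelled list, 13.1 per 10000, and 1 loop with 2 tags in the KO-labelled list, 0.0700 per 10000. The WT-labelled over KO-labelled ratio of the shares was 188, with a wide interval from 51.4 to 1559 because only 2 tags stand on one side; over all loops, with 281 and 10 tags, it was 67.4 (36.1 to 142). The strongest WT-labelled loop held 80 tags over 21.7 kb; another held 44 tags over 19.6 kb with both anchors at the gene, and a loop of 21 tags over 65.8 kb reached Tmed5 and Ccdc18. The RNA of these partners moved in opposite directions, Tmed5 down by 0.69 and Ccdc18 up with a log2 fold change of 1.25. The KO-labelled loop spanned 396 kb, overlapped a 2-tag loop of the WT-labelled list at both anchors and ended at Pcgf3, itself a subunit gene of variant complex 1, whose RNA was not called (67.4 ± 0.369 against 65.2 ± 1.77 CPM). The widest anchor at Mtf2 was 32713 bases in the WT-labelled and 2072 bases in the KO-labelled list.

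Suz12 and Eed, core subunits with lower RNA, also had smaller tag shares. Suz12 had 11 loops with 169 tags in the WT-labelled list and 15 loops with 47 tags in the KO-labelled list, so that more loops held fewer tags. Its share went from 9.65 to 1.64 per 10000, 5.87-fold lower (4.23 to 8.29), and its tags within 100 kb from 118 to 10. The strongest WT-labelled loops held 87 tags over 15.2 kb and 31 tags over 5.94 kb. In the KO-labelled list the strongest, of 10 tags over 31.0 kb, reached Utp6, a ribosome biogenesis gene whose RNA fell by 1.23 ± 0.040 on the log2 scale. Eed had 6 loops with 66 tags against 4 loops with 11 tags, 3.77 against 0.385 per 10000, which is 9.79-fold lower (5.13 to 20.6), or 6.22-fold over all loops (4.26 to 9.24). Its WT-labelled loops of 21, 19 and 17 tags spanned 20.5, 47.1 and 27.2 kb, and 57 of its tags were in loops within 100 kb. In the KO-labelled list no tag of Eed was in a kept loop within 100 kb, and its strongest loop held 4 tags over 256 kb. The anchor over the start was 10371 bases against 3237 bases at Eed and 5832 against 3163 bases at Suz12.

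**Figure D4:**
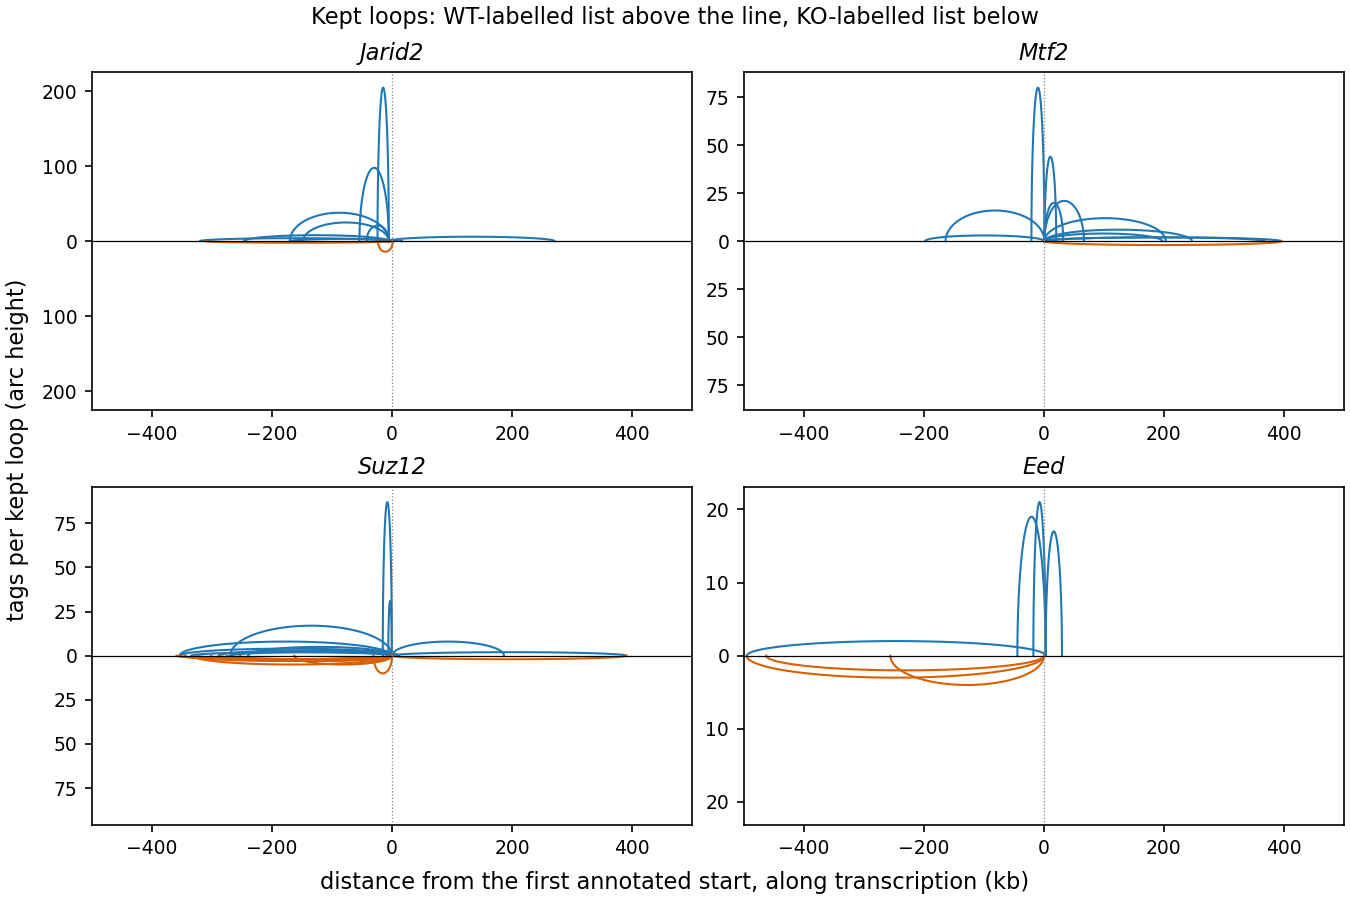
Kept loops of Jarid2, Mtf2, Suz12 and Eed drawn as arcs by distance from the gene start in kb, with the height of an arc giving its tags; WT-labelled loops are above and KO-labelled loops below the line, and loops reaching beyond 500 kb are not drawn. The tallest arc of each gene, such as the 205-tag loop of Jarid2 over 18.8 kb, stands on the WT-labelled side.

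The loops of Ring1, Phf1 and Ezh1 went the other way. Ring1 had 8 loops with 36 tags in the WT-labelled list and 21 loops with 139 tags in the KO-labelled list, 2.06 against 4.86 per 10000, which is 2.37-fold higher (1.63 to 3.51). A loop of 21 tags over 5.34 kb to the neighbouring genes Slc39a7 and Rxrb led the WT-labelled list. The widest anchor at Ring1 was 4850 bases in the WT-labelled and 10441 bases in the KO-labelled list. The KO-labelled anchor spans both anchors of that WT-labelled loop and lies mostly outside Ring1. All 21 KO-labelled loops use it, so their tags count for Slc39a7 and Rxrb too and are not those of Ring1 alone. The part of anchor width in the difference at Ring1 was not tested. In the KO-labelled list, loops of 27 tags over 11.5 kb to Rxrb and Col11a2, 21 tags over 92.5 kb to Brd2, and 17 tags over 72.9 kb to Rps18 and Vps52 led. With all loops in place of kept ones the difference at Ring1 turned, to -0.12 on the log2 scale. Phf1 had 1 loop with 2 tags in the WT-labelled list and 8 loops with 53 tags in the KO-labelled list, a ratio of 16.2 (4.28 to 137.5), which was 0.20 on the log2 scale over all loops. Within 2500 bases of its start, the kept tags of Phf1 were 0 and 21. Its strongest loop, of 19 tags over 6.95 kb, had both anchors at the gene. Ezh1 had no kept loop in the WT-labelled list and 8 with 35 tags in the KO-labelled list, at least 7.15-fold higher with 3 tags as the floor, and the exact interval of the ratio has a lower limit of 5.51. Over all loops the share was 6.04-fold higher (3.19 to 12.9). Within 2500 bases of its start, Ezh1 had 0 kept tags in both lists, so its difference is not one at the promoter window. The leading Ezh1 loops held 13 tags over 124 kb to Atp6v0a1 and Naglu and 8 tags over 127 kb to Psme3. Their anchor was at the 3′ end of the gene, 37.9 kb from its start. All 8 kept loops shared this anchor, which ran from 101183907 to 101193282 and lay mostly beyond the 3′ end at 101191115.

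The remaining 3 genes had few or no kept tags. Phf19, the gene with the largest RNA difference, had no kept loop in the WT-labelled list and 3 loops with 7 tags in the KO-labelled list, 0.245 per 10000. The exact interval of the ratio has a lower limit of 0.883, so equal shares are within counting error; over all loops the share was 2.46-fold higher (1.50 to 4.23). They spanned 793 kb to Dab2ip with 3 tags, 1126 kb to Mvb12b with 2 tags, and 353 kb to Gsn with 2 tags. Mvb12b is also the gene closest to Phf19 in RNA level, and Gsn, which encodes gelsolin, had a log2 fold change of 3.85, whereas Dab2ip fell by 0.67. With 2 or 3 tags a loop, these joins rest on very few read pairs. Ezh2 and Rnf2 had no kept loop in either list, which allows up to 0.171 per 10000 tags in the WT-labelled and 0.105 in the KO-labelled list. Over all loops Ezh2 had 10 and 14 tags, a KO-labelled share 0.583 times the WT-labelled one with an interval from 0.241 to 1.47, so no difference at Ezh2 was detectable at this depth. Rnf2 had 26 and 22 tags over all loops, a 2.84-fold lower share in the KO-labelled list (1.55 to 5.25).

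RNA and kept loop tags differed in the same direction, as labelled, at the genes where both passed their threshold. Ezh1, Eed, Suz12, Mtf2, Phf1 and Ring1 were called in RNA and at least 2-fold apart in share of kept tags, and in 6 of 6 the direction was shared. Over all genes that met both conditions, the direction was shared by 2451 of 3752, or 65.3%. Over all loops, Phf1 and Ring1 were no longer 2-fold apart. Ring1 also differed from its RNA in direction, which leaves 5 of the 6 genes with a shared direction. With the 20-tag and 2-fold thresholds set over all loops, the Polycomb genes that qualified were Ezh1, Eed, Suz12, Mtf2 and Phf19. The direction was then shared by 5 of 5 of them and by 4055 of 5628 genes, or 72.1%. The direction rests on the RNA labels, which Klf4 goes against. With the RNA labels exchanged, 0 of 6 Polycomb genes and 1301 of 3752 genes, or 34.7%, would share direction in kept loops. These are the remainders of the kept-loop counts above, so they do not tell which labels are right. This is a description of 6 genes, with 1 loop list per genotype.

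**Figure D5:**
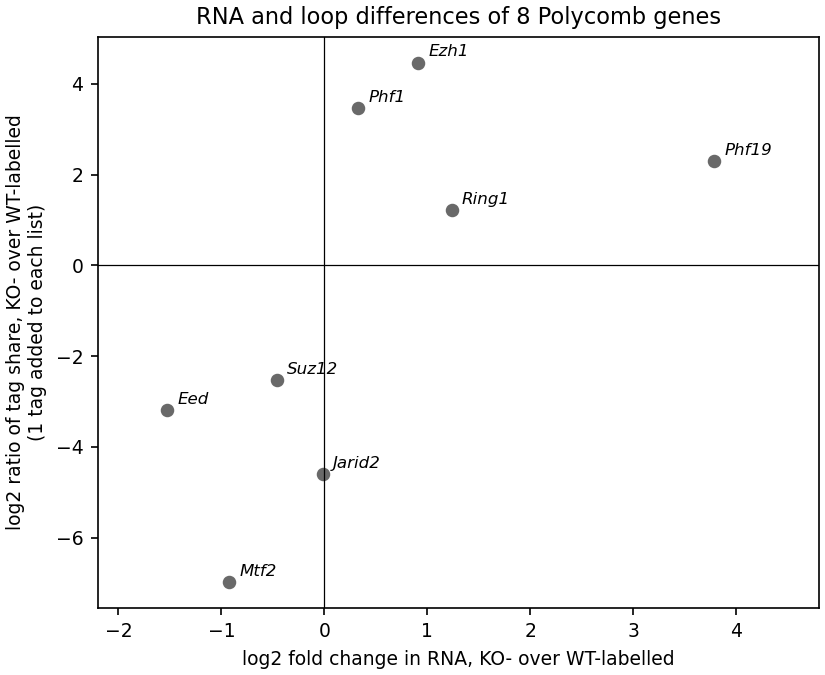
RNA log2 fold change (horizontal axis) against log2 ratio of kept tag shares (vertical axis), both KO-labelled over WT-labelled, for the 8 Polycomb genes with a kept loop; 1 tag was added to each list, and points are genes. Eed, Suz12 and Mtf2 lie below 0 on both axes, Ezh1, Phf1 and Ring1 above 0 on both, Phf19 lies far right on 7 tags, and Jarid2 lies near 0 in RNA but low in tag share.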

How the data were processed

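RNA-seq and HiChIP files of 8 of the 26 samples were used. The authors deposited whole-number read counts per gene for 4 libraries, and per the file headers the loops came as mango tables with tag counts and p-values adjusted as a false discovery rate. The submitters' processing notes name HISAT2 2.1.0, featureCounts 2.0.3, DESeq2 1.18.1 and HiC-Pro 2.11.1, without roles. Rows that name no gene were left out: reads in no feature were 6.05% to 8.07% of a column and not uniquely aligned ones 7.06% to 7.69%. Columns that matched no sample numbered 0.

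Counts were fitted with edgeR 4.0.16 in R 4.3.3 (TMM factors, filterByExpr, robust quasi-likelihood fit, two-sided test), with a threshold of 0.05 after Benjamini-Hochberg adjustment. DESeq2 1.42.0 was an alternative. The fit was tested on simulated counts with 200 changed genes. Intervals are exact, at 95%, and cover counting error only, since tags carry no molecular identifiers that the sources name. The false discovery rate of a loop is the value the authors deposited. The RNA floor for a count of 0 was 3 reads per library. Named are Klf4, the 10 genes, in each list the 2 largest called rises and falls at 1 CPM or more in the higher group, the 3 nearest profiles of the gene with the largest change, genes at the far anchors of the 3 strongest loops per list (a selection of these is printed), and genes overlapping the 10; the markers Mki67, Klf2 and Fn1 and those at 0 were named after their values were seen. The genes and lists were chosen with earlier results of these data known. Ratios between paralogues were planned per length; no transcript lengths were at hand, so changes of the ratio are given, in which length cancels. P-values measure the spread between the 2 samples of a genotype only.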

Additional observations from a re-analysis of the deposited data

How the results depend on the processing

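The main fit called 4 Polycomb genes higher and 4 lower. The 4 lower calls stayed under other scaling factors, DESeq2, no filter and the replicate block. The higher calls numbered 5 with upper-quartile factors, which add Jarid2, and 6 with library size alone, which adds Jarid2 and Rnf2. They numbered 4 with the other alternatives on all 4 libraries. Leaving out each library kept the direction of each called gene. The differences of Jarid2 and Rnf2, not called in the main fit, turned sign under these scalings. With upper-quartile factors they were 0.069 (edgeR adjusted p = 0.0458) and 0.011 (edgeR adjusted p = 0.805). With library size alone they were 0.19 (edgeR adjusted p = 1.77e-06) and 0.14 (edgeR adjusted p = 0.00310). Library size alone also moved the median of all genes from 0.026 to 0.24. The share of calls that were higher then went from 50.9% to 62.0%. Replicate numbers did not pair the samples (correlation 0.028 over 14100 genes); with them as a block, 6298 genes were higher and 6112 lower, against 6428 and 6190 without, and 4 and 4 of the Polycomb genes. Leaving out 1 library gave 5781 to 6235 higher and 5878 to 6038 lower. For loops, the tags per 10000 at the 10 genes were 56.5 at 3 or more tags and 32.9 over all loops in the WT-labelled list, and 9.34 over all loops and 8.71 within the start window in the KO-labelled list; the ratio of the shares was 0.214, 0.284 over all loops and 0.169 within the start window. Ring1 turned to -0.12 over all loops, and the WT-labelled over KO-labelled ratios of Mtf2, Jarid2 and Eed fell to 67.4, 16.4 and 6.22. The cause of these shifts was not tested. The planned unscaled alternative to length-scaled ratios was not run, since no lengths were at hand. Depth limits the loops of Ezh2, Rnf2 and Phf19, and the RNA of Phf19 in WT-labelled libraries.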
